A study of Mus musculus with 17 samples.

Results

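The genes described here are 7 genes of steroid and oxysterol metabolism, of 18554 gene symbols in the table: Cyp11a1, Cyp39a1, Hsd3b7, Hsd11b1, Ch25h, Cyp7b1 and Nr1h2. Of these, 6 encode enzymes, and Nr1h2 encodes a nuclear receptor for oxysterols. They were chosen by name, with their levels across the 5 groups already known, so their differences between groups are a description and carry no test. Poly(A) RNA of B cells from C57BL/6 mice was measured in 17 libraries as TPM (a relative transcript level corrected for transcript length, so that genes can be compared). The first group was Sf3b1 MT, with a mutation of the splicing factor gene Sf3b1 (n = 3). Next was Atm MT, with a deletion of the DNA-damage kinase gene Atm (n = 6). The libraries called DM were labelled as carrying both lesions (n = 3, replicates 1, 3 and 6), and those called DM-CLL are of the same genotype labelled as chronic lymphocytic leukaemia (n = 2, replicates 4 and 5). The last group was WT (n = 3). The series title describes the model as restricted to B cells, and the sample titles call all mice old; the driver of recombination, the age and the sex are not given in the sources used here. The labels do not say that replicates are separate mice, so p-values measure the spread between these samples, which may be technical.

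Cells turn cholesterol into steroid hormones, oxysterols and bile acids. Cyp11a1 is the mitochondrial enzyme that cuts the cholesterol side chain to give pregnenolone, the parent of all steroid hormones, and it takes electrons from Fdxr through Fdx1. Oxysterols are cholesterol molecules with an added hydroxyl group. Ch25h and Cyp7b1 make the oxysterol that guides B cells through the receptor Gpr183, and Hsd3b7 inactivates it. Hsd3b7 also acts in bile acid synthesis, and Cyp39a1 hydroxylates the ring of an oxysterol that is best known from the brain. Hsd11b1 sits in the endoplasmic reticulum and converts inert glucocorticoids into active ones, with NADPH that H6pd supplies. Nr1h2 encodes LXRβ, which switches on genes of cholesterol export and lipid synthesis when oxysterols bind.

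Sequence before the annotated start is given for the 3 enzyme genes whose levels set the DM-CLL or WT libraries apart and which have an entry in the RefSeq promoter table (GRCm38.p6); that table held 5 of the 7 genes. Each line is the 250 bases before a start, 5′ to 3′ on the gene's strand. Cyp11a1 has 2 annotated starts there, one upstream of the GENCODE gene body and one inside it. The start of Hsd11b1 there also lies inside its GENCODE gene body (193221634 to 193264075), so its window is not upstream of the whole gene. Searched on both strands were AGGTCA, the core site of nuclear receptors, the TATA element TATAAA, the CCAAT element, the GC element GGGCGG, and a direct repeat of AGGTCA with any 4 bases between, the arrangement that LXR binds. Capitals mark the matches.
Cyp11a1, first start, chr9:57997774-57998023, plus strand: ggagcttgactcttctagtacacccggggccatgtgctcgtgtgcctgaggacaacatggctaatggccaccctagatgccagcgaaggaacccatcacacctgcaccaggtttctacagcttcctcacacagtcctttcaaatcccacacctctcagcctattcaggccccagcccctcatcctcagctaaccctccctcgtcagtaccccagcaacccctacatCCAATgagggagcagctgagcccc
Cyp11a1, second start, chr9:58014702-58014951, plus strand: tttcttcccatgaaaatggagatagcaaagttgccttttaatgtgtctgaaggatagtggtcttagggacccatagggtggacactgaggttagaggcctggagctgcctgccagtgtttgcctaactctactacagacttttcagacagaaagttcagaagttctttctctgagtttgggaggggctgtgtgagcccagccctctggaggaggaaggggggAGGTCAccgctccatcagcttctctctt
Hsd3b7, chr7:127800359-127800608, plus strand: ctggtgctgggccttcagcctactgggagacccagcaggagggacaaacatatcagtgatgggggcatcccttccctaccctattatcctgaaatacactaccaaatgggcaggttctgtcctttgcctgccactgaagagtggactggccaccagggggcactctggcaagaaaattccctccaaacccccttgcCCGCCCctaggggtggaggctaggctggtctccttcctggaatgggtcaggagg
Hsd11b1, chr1:193242361-193242610, minus strand: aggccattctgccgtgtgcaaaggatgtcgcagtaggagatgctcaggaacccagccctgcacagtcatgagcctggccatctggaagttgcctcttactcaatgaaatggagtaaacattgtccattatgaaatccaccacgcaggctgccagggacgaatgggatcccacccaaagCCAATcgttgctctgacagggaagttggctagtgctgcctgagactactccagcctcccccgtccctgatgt
The window before the second Cyp11a1 start held AGGTCA 28 to 23 bases before the start. This is the core motif recognised by Nr5a1, the regulator of steroid-making glands, and 14% of the 32851 promoter windows in the table held it. The window before the first start held CCAAT 24 to 20 bases before it, and that of Hsd11b1 held CCAAT 72 to 68 bases before its start; 33.8% of all windows held CCAAT. The Hsd3b7 window held GGGCGG on the opposite strand, 54 to 49 bases before its start, as 32.7% of all windows did on either strand. No match overlapped another. The spaced repeat was in none of the windows of these genes and in 0.0152% of all windows.

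The libraries were B-cell libraries by their markers: the summed TPM of 8 B-cell markers lay between 2149 and 4960 in all 17. In Atm MT libraries 1 to 4 the sum of 14 macrophage markers was 971 to 1756 TPM, against 82.5 to 300 in the other 13. DM-CLL library 4 had 177 TPM over 9 T-cell markers and 34834 TPM over 7 erythroid markers. DM-CLL library 5 had 28.7 and 37.4 TPM. T-cell sums were 9.11 to 31.4 in all libraries but DM-CLL 4. Sums of 11 neutrophil markers were 1412 and 123 TPM in DM-CLL libraries 4 and 5. They were 158 to 592 in Sf3b1 MT, 92.6 to 818 in Atm MT, 477 to 1564 in DM and 63.8 to 1112 in WT. For 7 natural killer cell markers the sums were 52.9 and 6.38 TPM in DM-CLL libraries 4 and 5, and 14.9 to 31.8 in DM. Xist, an RNA of female cells, was 9.54 to 116 TPM in 8 libraries (Atm MT 1, 2 and 4, DM 3, both DM-CLL, WT 1 and 2) and at most 0.08 in the rest. Sf3b1 averaged 69.9 ± 19.3 TPM in Sf3b1 MT, 57.4 ± 17.1 in DM and 105 ± 8.51 in WT (SD, n = 3 each). The mean of Atm was 7.5 ± 4.23 TPM for the 6 Atm MT libraries, 3.41 ± 0.789 for DM and 7.64 ± 1.197 for WT, so its level did not separate Atm MT from WT. TPM values were tested on the log2(TPM + 1) scale, which understates changes of low genes, for 9898 genes with at least 1 TPM in at least 2 libraries. That filter passed 5 of the 7 genes: Ch25h and Cyp7b1 failed it.

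Cyp11a1, the cholesterol side-chain cleavage enzyme (chromosome 9, 58006411 to 58027023, plus strand, GRCm38; 4.47 megabases from Atm on the same chromosome), was abundant in the DM-CLL libraries and scarce in most others. It measured 0.09, 0.03 and 0.28 TPM in Sf3b1 MT. In Atm MT it ran from 0.42 to 4.93 TPM with a median of 1.20. DM libraries 1, 3 and 6 had 0.18, 9.38 and 0.19 TPM, DM-CLL libraries 4 and 5 had 206 and 81.1 TPM, and WT libraries had 0.24, 0.35 and 0.44 TPM. The lower DM-CLL library was 8.65 times the highest of the other 15 libraries, which was DM 3. On the log2(TPM + 1) scale DM-CLL exceeded DM by 5.74 ± 0.77 (SE) and WT by 6.60 ± 0.77. The group means were 144 ± 88.5 TPM in DM-CLL (SD, n = 2), 3.25 ± 5.31 in DM and 0.343 ± 0.1 in WT (n = 3 each).

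Outside DM-CLL, Cyp11a1 was above 1 TPM in 5 libraries, namely Atm MT 1 to 4 with 4.25, 4.93, 1.38 and 1.02 TPM, and DM 3. These Atm MT libraries are the 4 with high macrophage marker sums, and Atm MT libraries 5 and 6 had 0.42 and 0.60 TPM. The difference of Atm MT from WT was 0.98 ± 0.59 with all libraries and 0.17 with only Atm MT libraries 5 and 6, an alternative added after the values were seen. DM minus WT was 0.87 ± 0.69, and −0.18 without DM 3. DM 3 had the highest macrophage marker sum of the DM group, 300 TPM against 194 in each of the other two DM libraries. The macrophage sums of the DM-CLL libraries were 209 and 233 TPM, within the range of the libraries with little Cyp11a1. The part of macrophage RNA in the Atm MT values was not tested, and in bulk samples a change in the share of a cell type and a change of RNA per cell cannot be told apart.

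Cd5, a T-cell and CLL surface marker, was also highest where Cyp11a1 was high: 30.8 and 20.8 TPM in the DM-CLL libraries, 15 in Atm MT 2, the highest of its group, and 3.07 in DM 3, the highest of its group. Cd3e, a chain of the T-cell receptor complex, was 11.9 TPM in DM-CLL 4 and 0.39 TPM in DM-CLL 5, where Cyp11a1 was 206 and 81.1 TPM. The part of T-cell RNA in the Cyp11a1 levels was not tested. Mast cells and basophils had summed marker levels over 11 genes of 12.97 and 6.14 TPM in DM-CLL, against 5.58 to 10.6 in DM and 2.51 to 8.05 in WT. Of their defining markers, Ms4a2, a chain of the IgE receptor, was 1.19 and 0.72 TPM in DM-CLL and at most 0.09 TPM in the other 15 libraries, so it was high in the libraries where Cyp11a1 was highest. Cpa3, a mast cell protease, was 0.48 and 1.37 TPM in DM-CLL, against 0.15 to 0.47 in DM. In WT it was 0.15 to 0.56, which overlapped DM-CLL. Fcer1a, another chain of the IgE receptor, was 0.23 and 0 TPM in DM-CLL, at most 0.34 in any library and at 0 in 12 of 17. Kit, also on this list, went the other way against DM, with 1.11 and 1.14 TPM in DM-CLL and 1.38 to 3.53 in DM. Its DM-CLL values lay within the WT range of 0.69 to 2.28 TPM. All these levels were low. The part of mast cell or basophil RNA in the Cyp11a1 levels was not tested. Xist moved with the contrast of DM-CLL and DM, since both DM-CLL libraries had Xist and DM 3 was the one DM library that did. By Xist, Cyp11a1 was 4.25, 4.93 and 1.02 TPM in the Atm MT libraries with Xist and 1.38, 0.42 and 0.60 in those without. In DM it was 9.38 TPM with Xist and 0.18 and 0.19 without, and in WT it was 0.24 and 0.35 with Xist and 0.44 without. Among libraries with Xist, the DM-CLL values of 206 and 81.1 TPM thus stood against 9.38 in a single DM library. The part of sex in these differences was not tested.

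**Figure D1:**
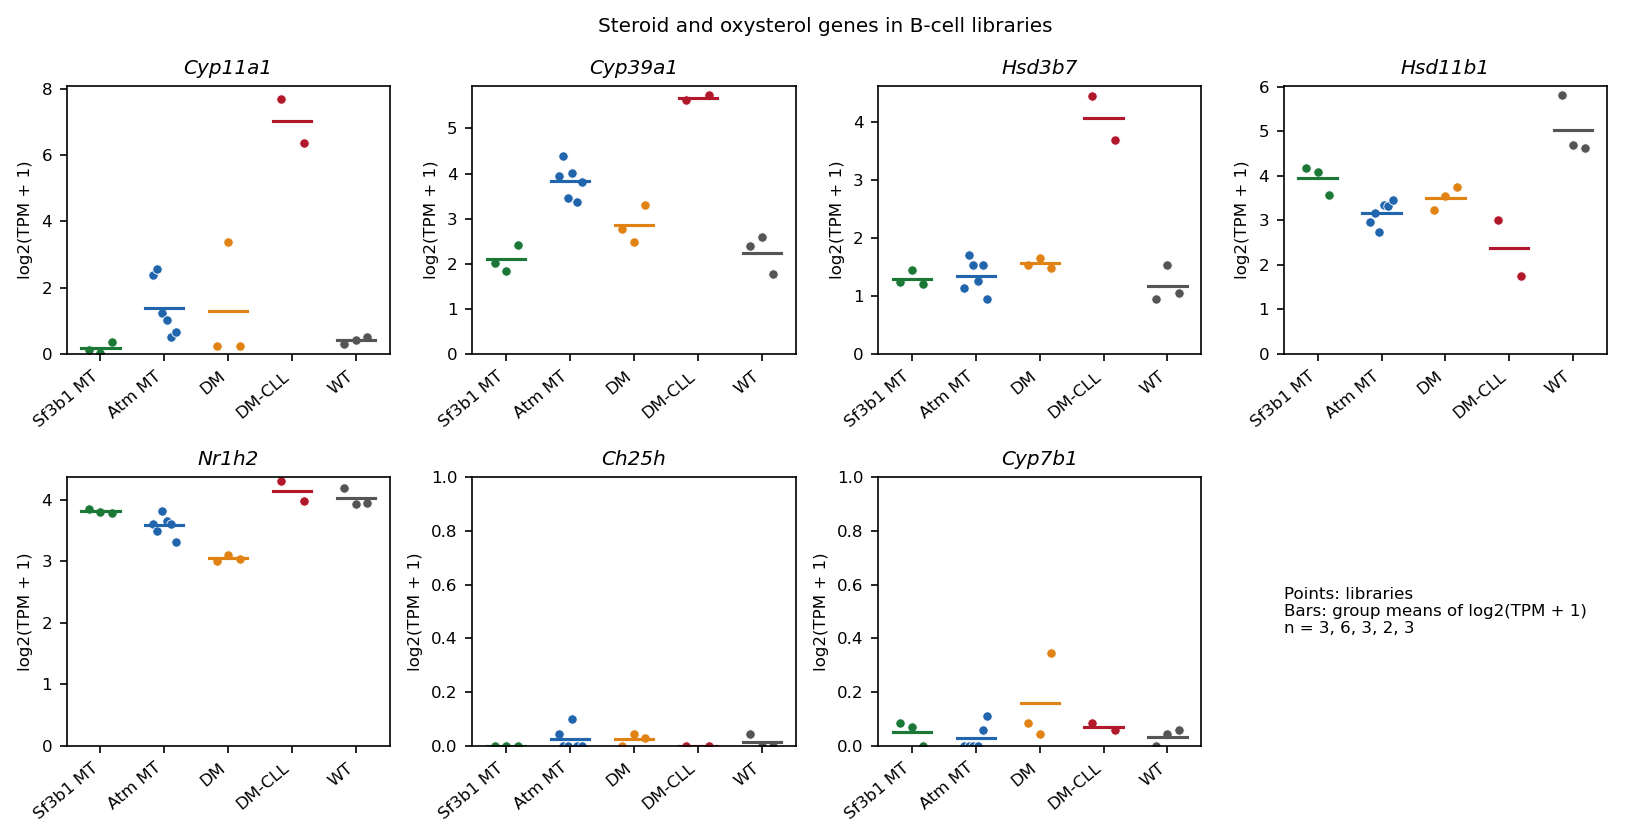
Levels of the 7 genes as log2(TPM + 1) in each library (points), with group means as bars, in the order Sf3b1 MT, Atm MT, DM, DM-CLL and WT; the vertical scale differs between genes and each axis starts at 0. DM-CLL libraries stand above all others for Cyp11a1, Cyp39a1 and Hsd3b7, WT libraries stand above all others for Hsd11b1, and Ch25h and Cyp7b1 lie at or near 0 throughout.

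The partners that Cyp11a1 needs were present, while the enzymes that carry pregnenolone to progesterone and on to glucocorticoids, mineralocorticoids or oestrogens were close to 0. Fdx1, its electron carrier, measured 8.31 and 7.71 TPM in DM-CLL, against 4.77 to 6.64 in DM and 4.85 to 5.80 in WT, and did not pass in any comparison. Fdxr, which feeds electrons to Fdx1, measured 9.77 and 12.1 TPM in DM-CLL, against 4.49, 6.13 and 5.93 in DM. It rose in DM-CLL against DM by 0.87 ± 0.20 (limma, adjusted p = 0.00473), with 9.65, 7.19 and 8.19 TPM in WT; it was named after its values were seen. After median-ratio scaling of the libraries its adjusted p was 0.137. The cholesterol carriers of mitochondria and endosomes, Star and Stard3, ran from 0.66 to 2.49 TPM and from 12.4 to 20.0 TPM over all libraries.

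Of these enzymes, Hsd3b1 and Cyp19a1 were at 0 in all 17 libraries, Hsd3b2 and Hsd3b6 reached at most 0.03 and 0.06 TPM, and Cyp17a1, Cyp21a1, Cyp11b1 and Cyp11b2 at most 0.31, 0.24, 0.01 and 0.03 TPM. In the DM-CLL libraries each of these was at 0, apart from 0.06 TPM of Hsd3b6 in library 4. Nr5a1, which drives Cyp11a1 in adrenal and gonad, was at 0 in both DM-CLL libraries and at most 0.08 TPM elsewhere. Depth is unknown, so no detection limit can be given for these genes. Other enzymes of the steroid list, which also act on fatty acids or other lipids, were well above 0 in all libraries. Hsd17b10 ran from 33.5 to 64.4 TPM, Hsd17b11 from 24 to 48.5, Hsd17b12 from 15.4 to 39.8, Hsd17b4 from 9.69 to 20.4, H2-Ke6 (Hsd17b8) from 23.5 to 41.6 and Srd5a3, a reductase of dolichol synthesis, from 4.14 to 13.9. None of these 6 passed in DM-CLL against DM or WT (limma, lowest adjusted p = 0.0659, for Hsd17b4 against DM). After median-ratio scaling H2-Ke6 was lower in DM-CLL than in DM (adjusted p = 0.0234). Hsd17b1 and Hsd17b3, which act on sex steroids, reached at most 0.7 TPM and 0. These genes were named after their values were seen.

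Cyp39a1, an oxysterol ring hydroxylase (chromosome 17, 43667425 to 43751431, plus strand), differed between groups in more than one step. It measured 3.05, 2.59 and 4.37 TPM in Sf3b1 MT. In Atm MT the lowest, median and highest values were 9.41, 13.7 and 19.8 TPM. DM libraries had 5.82, 4.58 and 8.88 TPM, DM-CLL libraries 48.4 and 52.5 TPM, and WT libraries 4.22, 5 and 2.41 TPM. Both DM-CLL libraries were alike and lay 2.44 times or more above all Atm MT libraries. As deposited, no Atm MT library overlapped Sf3b1 MT, DM or WT, though the gap to DM was narrow (9.41 against 8.88 TPM). By mean, the order was DM-CLL (50.5 ± 2.87 TPM), Atm MT (13.6 ± 3.81), DM (6.43 ± 2.21), WT (3.88 ± 1.33) and Sf3b1 MT (3.34 ± 0.924); WT overlapped both DM and Sf3b1 MT.

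In log2 units Cyp39a1 in Atm MT exceeded WT by 1.58 ± 0.25. DM minus Atm MT was −0.98, or −0.75 after median-ratio scaling. DM exceeded Sf3b1 MT by 0.76 ± 0.29 and WT by 0.61 ± 0.29. DM-CLL exceeded DM by 2.83 ± 0.31, or 2.34 after median-ratio scaling, and WT by 3.44 ± 0.31. Atm MT libraries 1 to 4, with macrophage marker sums of 971 to 1756 TPM, had 14.3, 19.8, 9.93 and 15.1 TPM of Cyp39a1. Libraries 5 and 6, with sums of 265 and 119 TPM, had 9.41 and 13.1 TPM, against a highest WT value of 5. The part of macrophage RNA in these levels was not tested. Among libraries with Xist it was 14.3, 19.8 and 15.1 TPM in Atm MT and 4.22 and 5 in WT, and among those without Xist 9.93, 9.41 and 13.1 in Atm MT and 2.41 in WT.

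The start of Slc25a27, a mitochondrial carrier gene on the opposite strand, lies 211 bases from that of Cyp39a1. It was named after its values were seen. Slc25a27 measured 1.81 and 3.08 TPM in DM-CLL, against 0.21, 0.09 and 0.27 in DM and 0.27, 0.16 and 0.23 in WT. It rose in DM-CLL by 1.51 ± 0.22 against DM (limma, adjusted p = 0.000177) and by 1.47 ± 0.22 against WT (adjusted p = 0.00032), and passed with each library left out in turn. In Atm MT it ran from 0.34 to 1.06 TPM, above all WT libraries, but the difference of 0.32 ± 0.15 did not pass (adjusted p = 0.441). In the GENCODE annotation Slc25a27 and Cyp39a1 do not overlap. The annotation and strand used in counting are not given in the sources used here, and the assignment of reads near these starts was not tested.

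**Figure D2:**
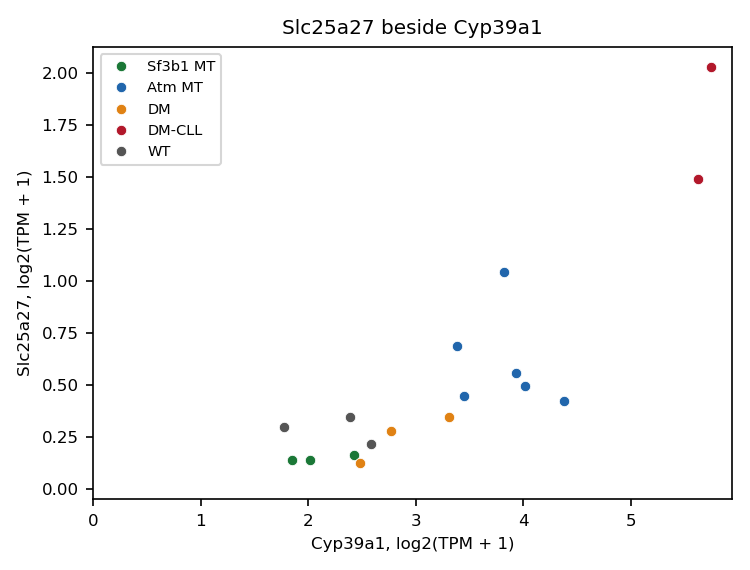
Level of Slc25a27 against that of Cyp39a1, both as log2(TPM + 1), with a point for each of the 17 libraries coloured by group. The DM-CLL points lie at the upper right, and the Atm MT points lie between them and the rest on the Cyp39a1 axis.

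Hsd3b7, which inactivates the Gpr183 ligand and takes part in bile acid synthesis (chromosome 7, 127800604 to 127803802, plus strand), stood out in the DM-CLL libraries alone. It measured 1.37, 1.74 and 1.31 TPM in Sf3b1 MT, and 0.94, 1.65 and 2.27 TPM as the lowest, median and highest values of Atm MT. DM libraries had 1.92, 2.17 and 1.80 TPM, DM-CLL libraries 20.9 and 12.0 TPM, and WT libraries 0.94, 1.90 and 1.07 TPM. The lower DM-CLL library was 5.26 times the highest value of the other 15 libraries, which was in Atm MT. DM-CLL exceeded DM by 2.51 ± 0.26 and WT by 2.89 ± 0.26 in log2 units; after scaling the difference from DM was 2.07. Sf3b1 MT and Atm MT exceeded WT by 0.12 ± 0.21 and 0.18 ± 0.18 log2 units, and these 3 groups overlapped. All DM values lay above the Sf3b1 MT values and overlapped WT.

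Setd1a, which encodes a histone methyltransferase and lies 482 bases from Hsd3b7 on the same strand, averaged 17.2 TPM in DM-CLL and 10.5 in DM, and did not pass (log2 difference 0.69, SE 0.26, limma, adjusted p = 0.0525); it was named after its values were seen.

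Ch25h and Cyp7b1, which make the Gpr183 ligand, were at or near 0 in all groups. Ch25h (chromosome 19, 34473778 to 34475164, minus strand) was at 0 in all Sf3b1 MT and DM-CLL libraries and reached 0.07 TPM in Atm MT, 0.03 in DM and 0.03 in WT; it was above 0 in 5 of 17 libraries. Cyp7b1 (chromosome 3, 18071950 to 18243338, minus strand) was above 0 in 11 libraries. Its highest value was 0.06 TPM for Sf3b1 MT, 0.08 for Atm MT, 0.27 for DM, 0.06 for DM-CLL and 0.04 for WT; the other two DM libraries had 0.06 and 0.03 TPM. At these levels no difference between groups could be read, and no fold is given. Gpr183 itself was present in all groups, with 13.99 and 50.6 TPM in DM-CLL, 22.8 to 58.7 in DM and 33.3 to 53.9 in WT.

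The other entry enzymes of oxysterol and bile acid synthesis were mostly low. Cyp7a1, the first enzyme of the main liver pathway, was at 0 in all libraries, and Cyp46a1, which makes the brain oxysterol that Cyp39a1 accepts, reached at most 0.12 TPM. Cyp27a1, the mitochondrial oxysterol-making enzyme, was present, with 2.18 and 4.61 TPM in DM-CLL, against 7.95, 5.41 and 12.7 in DM and 8.17, 5.94 and 11.6 in WT. The DM-CLL values overlapped neither DM nor WT. Sf3b1 MT, at 6.17 to 9.36 TPM, did not overlap DM-CLL either, and Atm MT, at 3.78 to 14.8 TPM, did. Cyp27a1 did not pass in DM-CLL against DM (log2 difference −1.13, SE 0.46, limma, adjusted p = 0.0692) or WT (adjusted p = 0.116). After median-ratio scaling the adjusted p against DM was 0.0209. Of 13 genes on this list, 4 passed the filter, and Amacr, an enzyme of bile acid side-chain shortening, alone rose in DM-CLL, by 0.99 ± 0.19 against DM (adjusted p = 0.00143) and by 0.67 ± 0.19 against WT (adjusted p = 0.0278). After median-ratio scaling the adjusted p was 0.0222 against DM and 0.0566 against WT, so the call against WT was lost. The genes of this paragraph were named after their values were seen.

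Hsd11b1, which reactivates glucocorticoids (chromosome 1, 193221634 to 193264075, minus strand), was the member that was highest in WT. It measured 17.03, 15.9 and 10.9 TPM in Sf3b1 MT, and 5.72, 8.48 and 9.95 TPM as the lowest, median and highest values of Atm MT. DM libraries had 8.37, 10.7 and 12.3 TPM, DM-CLL libraries 7.09 and 2.36 TPM, and WT libraries 55.1, 24.6 and 23.5 TPM. No library of any other group reached the lowest WT value. Against WT the log2 difference was −1.09 ± 0.29 for Sf3b1 MT, −1.87 ± 0.25 for Atm MT, −1.53 ± 0.29 for DM and −2.65 ± 0.37 for DM-CLL. Sf3b1 MT lay above Atm MT without overlap and overlapped DM, and DM overlapped Atm MT. DM-CLL minus DM was −1.12 ± 0.37, and it rested on DM-CLL library 5: it was −0.49 without that library and −1.76 without library 4.

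For Hsd11b1 the interaction of the lesions, DM minus Sf3b1 MT minus Atm MT plus WT, was 1.43 ± 0.38 log2 units, and 1.04 without WT library 1. A value above 0 means that DM lay less far below WT than the differences of Sf3b1 MT and Atm MT add up to. Within Xist classes the WT values stayed the highest of the 4 groups outside DM-CLL. With Xist they were 6.81, 7.93 and 9.08 TPM in Atm MT, 10.7 in DM and 55.1 and 24.6 in WT. Without Xist they were 17.03, 15.9 and 10.9 for Sf3b1 MT, 5.72, 9.02 and 9.95 for Atm MT, 8.37 and 12.3 for DM and 23.5 for WT. The summed level of 7 dendritic cell markers moved partly with Hsd11b1: it was 133 to 195 TPM for Sf3b1 MT, 45.9 to 120 for Atm MT, 132 to 360 for DM, 34.5 and 69.5 in DM-CLL and 149 to 224 in WT. The list includes Ccr7, at 18.03 to 313 TPM its most abundant gene and one that B cells also express. Its part in the Hsd11b1 levels was not tested; DM 1, with the highest sum, had 8.37 TPM of Hsd11b1. Lamb3, a laminin gene on the plus strand, overlaps Hsd11b1 in the annotation. Its mean TPM was 16.98 for Sf3b1 MT libraries, 15.4 for Atm MT, 10.4 for DM, 13.9 for DM-CLL and 18.8 for WT, and it passed in neither Atm MT against WT (adjusted p = 0.754) nor DM-CLL against DM (adjusted p = 0.874).

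H6pd, which supplies NADPH to Hsd11b1, differed the other way in DM-CLL. It measured 13.4 and 15.2 TPM in DM-CLL, against 3.51, 4.22 and 6.28 in DM and 3.61, 4.44 and 4.96 in WT. H6pd rose in DM-CLL by 1.46 ± 0.22 against DM (limma, adjusted p = 0.000207) and by 1.53 ± 0.22 against WT (adjusted p = 0.000229), and passed with each library left out and after scaling. Hsd11b2, the enzyme of the opposite direction, reached at most 0.31 TPM.

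Nr1h2 (LXRβ; chromosome 7, 44549616 to 44553951, minus strand, 83.2 megabases from Hsd3b7) was present in all 17 libraries, at 7.05 to 18.7 TPM. It measured 13.5, 12.96 and 12.8 TPM in Sf3b1 MT, and 8.91, 11.2 and 13.1 TPM as the lowest, median and highest values of Atm MT. DM libraries had 7.05, 7.55 and 7.22 TPM, DM-CLL libraries 18.7 and 14.8 TPM, and WT libraries 17.2, 14.3 and 14.4 TPM. As deposited, the DM values lay below all other libraries, and DM-CLL overlapped WT. The log2 difference of DM from WT was −0.97 ± 0.15, from Sf3b1 MT −0.77 ± 0.15 and from Atm MT −0.53 ± 0.13. That of DM-CLL from DM was 1.09 ± 0.17. After median-ratio scaling these differences were −0.67, −0.59, −0.30 and 0.60.

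These Nr1h2 differences ran with shifts of whole libraries. The median log2 difference of all tested genes was −0.25 in DM against WT, −0.206 in DM against Atm MT, −0.106 in DM against Sf3b1 MT, −0.111 in Sf3b1 MT against WT, 0.43 in DM-CLL against DM and 0.191 in DM-CLL against WT. Relative to it, Nr1h2 was 0.72 lower in DM than in WT and 0.66 higher in DM-CLL than in DM. DM-CLL minus WT was 0.12 as deposited and −0.07 after median-ratio scaling, so its direction depends on the scaling. Relative to the same medians, DM-CLL minus DM was 5.31 for Cyp11a1, 2.40 for Cyp39a1, 2.08 for Hsd3b7 and −1.55 for Hsd11b1.

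**Figure D3:**
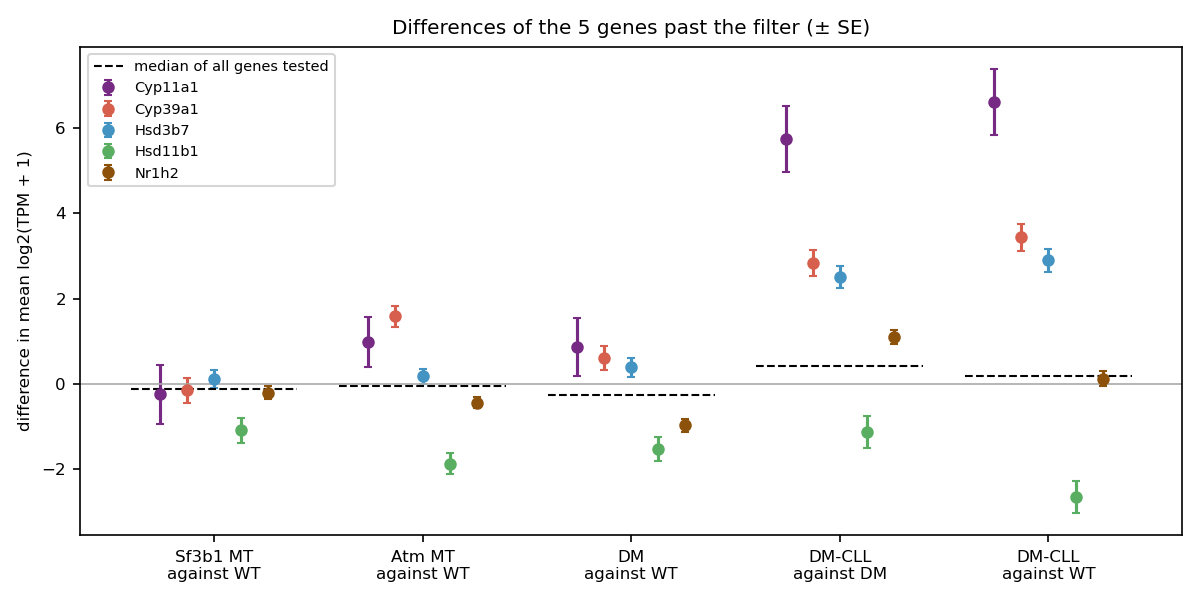
Differences in mean log2(TPM + 1) between groups for the 5 genes past the filter on low values, with standard errors, in 5 comparisons; dashed lines are the median difference of all 9898 genes tested. Cyp11a1, Cyp39a1 and Hsd3b7 lie 2.51 or more above 0 in DM-CLL against DM, and Hsd11b1 lies below 0 in all 5 comparisons.

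Nr1h3, the other LXR gene and one mainly used by macrophages, was low in most libraries. It measured 3.64, 6.37, 8.83 and 7.36 TPM in Atm MT libraries 1 to 4 and 0.82 and 0.33 in libraries 5 and 6, against 0.00, 0.83 and 1.01 in WT. Mertk and Lpl, LXR targets that macrophages also express, were high in the same 4 libraries, with 3.89 to 10.2 TPM of Mertk, against 1.25 and 0.94 in libraries 5 and 6. Nr1h3 did not pass in Atm MT against WT (1.496 ± 0.53, limma, adjusted p = 0.231), and its difference was 0.01 with only libraries 5 and 6. In DM-CLL Nr1h3 measured 0.70 and 0.90 TPM, so Nr1h2 was the LXR gene with the higher level there.

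**Figure D4:**
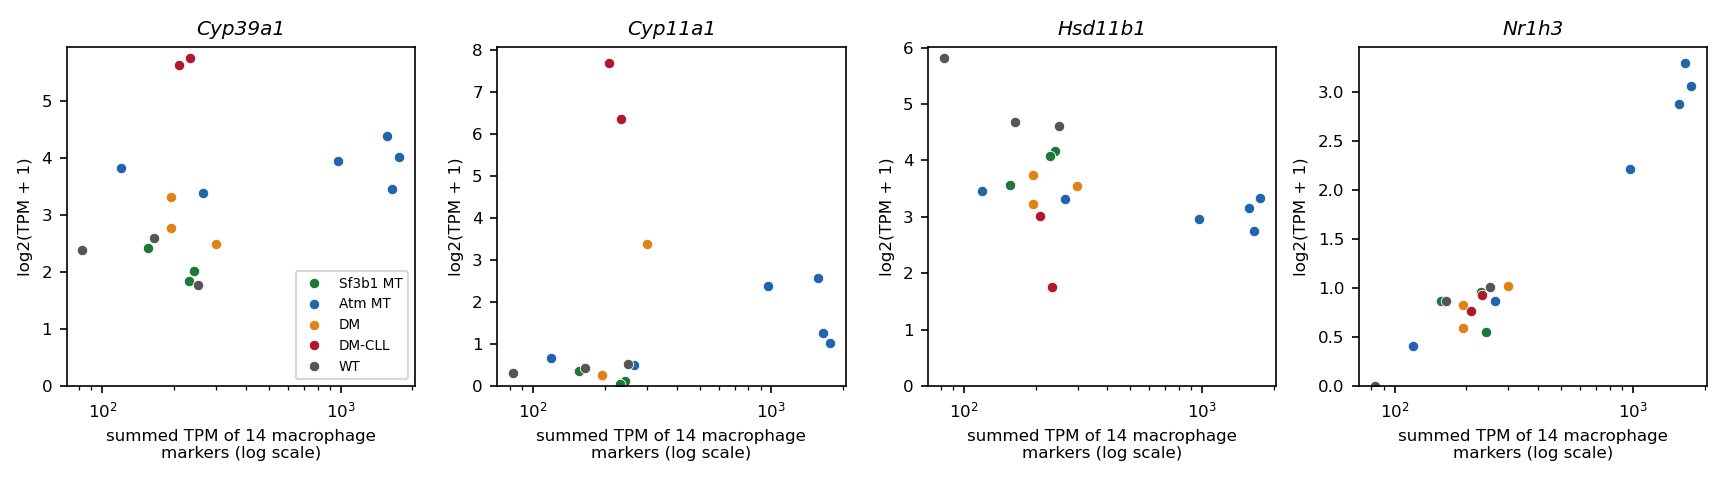
Level of Cyp39a1, Cyp11a1, Hsd11b1 and Nr1h3 as log2(TPM + 1) against the summed TPM of 14 macrophage markers (log axis), with a point for each library coloured by group. Atm MT libraries 1 to 4 form the group at 971 to 1756 TPM; Nr1h3 is above 3 TPM only there, and Cyp39a1 is 9.41 TPM or more in all 6 Atm MT libraries.

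Around the members, 6 lists of pathway genes were followed: steroid synthesis, steroid receptors and glucocorticoid targets, oxysterol and bile acid synthesis, oxysterol receptors and transfer proteins, LXR targets, and cholesterol synthesis and uptake. They hold 122 genes, of which 120 were in the table and 82 were tested. By limma with Benjamini-Hochberg adjustment over all tested genes, none of the 82 passed in Sf3b1 MT against WT, where 0.0707% of all tested genes passed, in Atm MT against WT (0.647% of all), in DM against WT (2.23%), in DM against Sf3b1 MT (0.121%) or in the interaction of the lesions (0.0%). The numbers of the 82 with an unadjusted p under 0.05 in these comparisons were 4, 11, 12, 6 and 5. Among all 9898 tested genes they were 1047, 1118, 2372, 1096 and 546. In DM against WT, 6.79% of called genes were higher as deposited and 55.6% after scaling; in DM against Sf3b1 MT these shares were 33.3% and 62.5%.

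In Atm MT against WT, all 22 tested genes of cholesterol synthesis and uptake had a log2 difference below 0, with a median of −0.20, against −0.0499 over all genes; none passed. In DM against Atm MT, 2 of 82 pathway genes passed, both lower, where 6.05% of all tested genes passed. Of all genes called there 25.4% were higher as deposited and 71.2% after scaling. One of the 2 was Osbpl9, an oxysterol-binding transfer protein, with 31.7, 20.1 and 35.9 TPM in DM, against 38.3 to 56.5 in Atm MT. It fell by 0.70 on the log2 scale (SE 0.18, adjusted p = 0.0394). The call was lost after scaling (adjusted p = 0.0779), without Atm MT 2, 4 or 6 (0.051, 0.0828 and 0.0525) or without DM 1 or 3 (0.0819 and 0.22). The other was Nr3c2, the mineralocorticoid receptor gene, which also binds glucocorticoids, with a mean of 1.497 TPM in DM and 2.86 in Atm MT; its call held in 1 of 9 fits that left out a library.

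In DM-CLL against DM, 16 of 82 pathway genes rose and 2 fell, where 31.2% of all tested genes passed. As a share, 22% of the pathway genes passed. After median-ratio scaling 5 were higher and 10 lower, and over all genes 93.7% of calls were higher as deposited and 53.8% after scaling. The median difference of the 82 genes was 0.32, against 0.43 over all genes.

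Among receptors and their targets, Nr3c2 measured 8.58 and 6.28 TPM in DM-CLL, against 1.83, 1.07 and 1.59 in DM and 2.10, 2.68 and 3.51 in WT. It rose by 1.75 ± 0.23 against DM (adjusted p = 7.4e-05) and by 1.17 ± 0.23 against WT (adjusted p = 0.00254), and passed with each library left out and after scaling. The glucocorticoid receptor gene Nr3c1 measured 16.4 and 23.6 TPM in DM-CLL, against 16.6, 9.93 and 12.0 in DM, and did not pass. Of the glucocorticoid-induced genes, Fkbp5 measured 21.8 and 17.6 TPM in DM-CLL, against 6.60, 8.04 and 9.20 in DM. It rose by 1.21 ± 0.38 (adjusted p = 0.0242), a call lost after scaling (0.227) and without DM 1 or 3 or either DM-CLL library (0.0744, 0.0504, 0.151 and 0.0518). Dusp1, a phosphatase gene induced by glucocorticoids and by stress, measured 37.3 and 111 TPM in DM-CLL, against 260, 146 and 150 in DM. It fell by 1.46 on the log2 scale (SE 0.43, adjusted p = 0.0185), and the call was lost without DM 1 (0.075) or DM-CLL 4 (0.331). Tsc22d3, another glucocorticoid-induced gene, differed between the 2 DM-CLL libraries, with 172 and 462 TPM.

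Among LXR targets, Apoe, a lipid-carrier gene, measured 1308 and 870 TPM in DM-CLL, against 205, 564 and 231 in DM and 686, 400 and 701 in WT. It rose against DM by 1.83 ± 0.66 (adjusted p = 0.044), a call lost after scaling (0.243) and without DM 1 or 6 or either DM-CLL library (0.132, 0.0975, 0.23 and 0.0738). Scd2, a fatty acid desaturase gene, measured 46.6 and 49.9 TPM in DM-CLL, against 21.2, 15.2 and 29.4 in DM. It rose by 1.15 ± 0.29 (adjusted p = 0.00773; 0.123 after scaling). Pltp, a lipid-transfer gene, measured 3.67 and 7.55 TPM in DM-CLL, against 10.3, 8.21 and 22.7 in DM and 26.1, 22.9 and 38.3 in WT. It fell by 1.10 against DM (SE 0.40, adjusted p = 0.049), not without DM 1 or 6 or DM-CLL 4 (0.0631, 0.172 and 0.385). Against WT it fell by 2.22 (SE 0.40, adjusted p = 0.00153), with each library left out as well. The export pumps Abca1 and Abcg1 passed in neither comparison.

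Among genes of cholesterol synthesis, Cyp51, the sterol demethylase, measured 29.5 and 18.1 TPM in DM-CLL, against 6.32, 7.21 and 10.1 in DM and 11.1, 7.71 and 7.74 in WT. It rose by 1.47 ± 0.35 against DM (adjusted p = 0.00592; 0.0935 without DM-CLL 4) and by 1.31 ± 0.35 against WT (adjusted p = 0.0205). The call against WT was lost without DM-CLL 4, WT 2 or WT 3 (0.225, 0.0652 and 0.0618).

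Srebf2, which encodes the master regulator of this pathway, and Acat2 also rose against DM (limma, adjusted p = 0.01 and 0.0391), but not after scaling (0.12 and 0.587), and neither passed against WT; they were named after their values were seen. Osbpl6, another oxysterol-binding protein gene, was listed at 0 in all Sf3b1 MT, DM and WT libraries. It ran from 0 to 0.52 TPM in Atm MT and measured 2.27 and 2.75 TPM in DM-CLL. Osbpl6 passed, but lies below the mean used for naming and was added after its values were seen.

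In DM-CLL against WT, 7 of 82 pathway genes rose and 3 fell (12.2%), where 13.1% of all tested genes passed; after scaling 5 were higher and 11 lower. Over all genes the share of higher calls was 78.6% as deposited and 56.8% after scaling. Beside H6pd, Cyp51 and Nr3c2, the named risers include Rxrb, the partner receptor of LXR, with 40.9 and 43.2 TPM in DM-CLL, against 28.9, 26.5 and 29.6 in WT. It rose by 0.55 ± 0.16 (adjusted p = 0.0271), but not without either DM-CLL library or WT 1 or 2 (0.0928, 0.106, 0.0597 and 0.0882). Mylip, which degrades the LDL receptor, measured 20.95 and 19.7 TPM in DM-CLL, against 33.2, 46.1 and 64.5 in WT, and fell by 1.15 (SE 0.34, adjusted p = 0.0364). Its call was lost without either DM-CLL library or WT 2 or 3 (0.133, 0.12, 0.0796 and 0.135). Scd1 measured 81.1 and 98.6 TPM in DM-CLL, against 147, 183 and 250 in WT, and fell by 1.07 (SE 0.27, adjusted p = 0.0137), but not without DM-CLL 4 (0.126) or WT 3 (0.0603). The 2 comparisons of DM-CLL share the DM-CLL libraries.

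**Figure D5:**
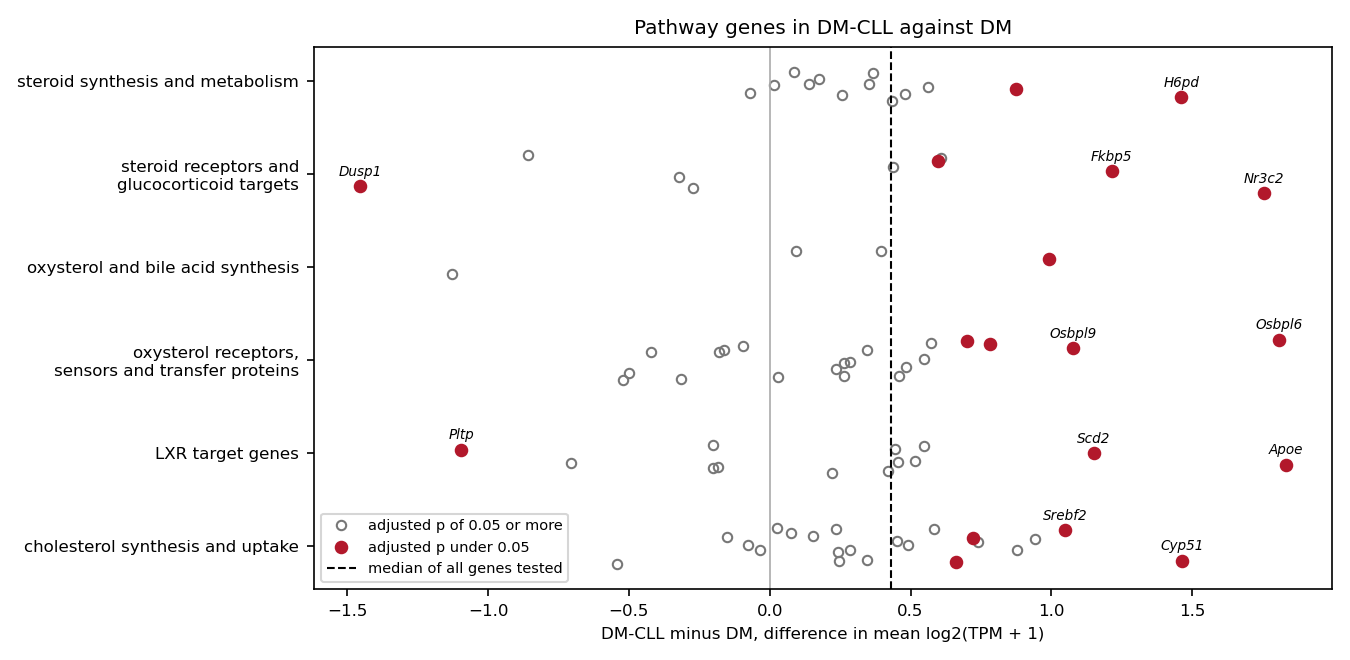
Differences between DM-CLL and DM in mean log2(TPM + 1) for the tested genes of the 6 pathway lists, with a list per row and vertical jitter for legibility. Filled points passed an adjusted p of 0.05 and those beyond 1 log2 unit are named; the dashed line is the median of all tested genes, 0.43, and the median of the pathway genes, 0.32, lies to its left.

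Genes with the most similar profile were sought among tested genes with a mean of at least 5 TPM in at least 1 group, by Pearson's r of log2(TPM + 1); these values are descriptions over libraries that share groups. Over all 17 libraries the profiles of the 3 enzymes high in DM-CLL were matched by other genes high there. Those nearest to Cyp11a1 were Myo1d (r = 0.977), Avil (0.968) and Fgf11 (0.963); Avil, an actin-binding villin relative, averaged 92.1 TPM in DM-CLL, 1.11 in DM and 0.143 in WT. Nearest to Cyp39a1 were Galnt7, Mcoln2 and Crim1 (0.948, 0.947 and 0.947), and nearest to Hsd3b7 were Fcrls, St3gal6 and Antxr1 (0.972, 0.967 and 0.967). Cyp11a1 and Hsd3b7 had r = 0.913 over 17 libraries and 0.345 over the 15 without DM-CLL, so their likeness rests on the 2 leukaemic libraries.

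Over the 15 libraries without DM-CLL, Cyp39a1 was nearest to Mcoln2 (r = 0.885), Mpp6 (0.882) and Faah (0.859). Mcoln2, an endosomal cation channel gene, averaged 8.9 TPM over Sf3b1 MT libraries, 20.1 over Atm MT, 9.7 over DM, 49.9 over DM-CLL and 7.8 over WT, the same order as Cyp39a1 except at its low end. Hsd11b1 was nearest to Spon1 (0.921), Dnm3 (0.916) and Fzd6 (0.906), and Fzd6, a Wnt receptor gene, averaged 0.947 TPM over Sf3b1 MT libraries, 0.398 over Atm MT, 0.437 over DM, 0.14 over DM-CLL and 7.85 over WT. Cyp11a1 was nearest to AI427809, Pstpip2 and Gnb3 (0.826, 0.824 and 0.78), Hsd3b7 to Epcam and Hebp1 (0.752 and 0.75), and Nr1h2 to Dhx30, Krtcap2 and Syvn1 (0.937, 0.899 and 0.896). For Nr1h2 the nearest genes over all 17 libraries were Syvn1, Trim11 and Tmem184b (0.892, 0.888 and 0.882), and for Hsd11b1 they were Dnm3, Spon1 and Tspan3 (0.908, 0.89 and 0.868).

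Within 100000 bases of Cyp11a1, 2 of 7 annotated genes were tested, and both rose in DM-CLL against DM, where 31.2% of all genes passed. Sema7a, a membrane semaphorin gene, measured 37.7 and 39.8 TPM in DM-CLL, against 9.21, 8.72 and 12.7 in DM, and rose by 1.84 ± 0.36 (adjusted p = 0.0016; 0.0236 after scaling). Ubl7 rose by 0.82 ± 0.20 (adjusted p = 0.00667), but not after scaling (0.316) or without DM-CLL 4 (0.162). Ccdc33, which ends 1654 bases from Cyp11a1, was at 0 in both DM-CLL libraries. Near Hsd11b1, G0s2, an inhibitor of lipid breakdown, fell in DM-CLL against DM by 1.62 (SE 0.45, adjusted p = 0.0135), a call that held in 3 of 5 fits that left out a library (0.064 without DM-CLL 4). G0s2 measured 1.82 and 1.57 TPM in DM-CLL, against 6.52, 5.70 and 10.2 in DM and 1.27, 1.18 and 4.54 in WT. It did not pass in DM-CLL against WT (log2 difference −0.16, SE 0.45, limma, adjusted p = 0.856). It was 1 of 3 tested neighbours. These neighbours were named after their values were seen.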

How the data were processed

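The authors deposited TPM for 18554 gene symbols in 17 libraries of poly(A) RNA, prepared per the labels' protocols with a PrepEase extraction and NEBNext Ultra libraries. STAR and mm10 are named in the submitters' processing notes; the quantifier, annotation, strand setting and read depth are not given in the sources used here, so no counting intervals were computed. Listed TPM summed to 43.1% to 59.7% of the full TPM total per library, and no 2 libraries were identical.

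Groups followed the genotype labels. TPM were transformed as log2(TPM + 1) and fitted with limma 3.58.1 (R 4.3.3, mean trend) for 9898 genes with at least 1 TPM in at least 2 libraries. The first 6 comparisons used 15 libraries without DM-CLL, and both DM-CLL comparisons used 17. Adjusted p-values are Benjamini-Hochberg over all tested genes, 2-sided, with a threshold of 0.05. The members and lists were chosen with earlier results of these data known, so members carry no test. Named pathway genes are those that passed, where the higher group averaged 5 TPM or more, up to 6 per direction and comparison by size; for each member the 3 most alike genes are named, except one that is not reported here. Of the 122 list genes, 2 symbols (Sts and Msmo1) matched nothing in the table.

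Alternatives were median-ratio scaling over 7769 genes, the replicate number as a block, each library left out, all genes without a minimum level, a smaller pseudocount (0.1) and, added after the data were seen, Atm MT without libraries 1 to 4. The fit was tested on simulated data. Positions came from GENCODE M21 on GRCm38 and promoters from RefSeq on GRCm38.p6. Tables were handled in Python 3.11.15 (numpy 2.4.6, pandas 2.3.3) and plotted with matplotlib 3.10.9.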

Additional observations from a re-analysis of the deposited data

Results flagged for a closer look

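H6pd, the NADPH supplier of Hsd11b1, had 1 library far from the other 5 in Atm MT: the highest, library 1, measured 7.49 TPM, and the others 4.91 to 5.78 TPM. Chance alone marks about 1 in 20 groups by this criterion, and 21 genes were screened in Atm MT. Library 1 is among the 4 Atm MT libraries with high macrophage marker sums, and the 3 others of these measured 5.18 to 5.78 TPM of H6pd; the part of macrophage RNA in this value was not tested.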

How the results depend on the processing

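For Cyp11a1, Cyp39a1, Hsd3b7 and Hsd11b1 the direction of the difference of DM-CLL from DM and from WT held under each alternative run; for Nr1h2 that from WT turned to −0.07 with scaling and to −0.04 without DM-CLL 4. For Cyp39a1, Sf3b1 MT minus WT was −0.15, and 0.02 without WT 2. Counts of called genes moved as follows. With the replicate block, genes called were 4 in Sf3b1 MT against WT (7 without it), 303 in Atm MT against WT (64), 1131 in DM against WT (221), 1247 in DM-CLL against DM (3084) and 755 in DM-CLL against WT (1299), and pathway genes called were 4 in Atm MT against WT (0), 5 in DM against WT (0) and 7 in DM-CLL against DM (18). The labels do not say whether same-numbered libraries are paired. Deviations of same-numbered libraries from their group means had r from −0.363 to 0.364. With so few libraries per group, these values cannot decide whether the numbers pair them. With median-ratio scaling, genes called were 3 in Sf3b1 MT against WT, 27 in DM against WT, 386 in DM against Atm MT (599) and 1622 in DM-CLL against DM, and pathway genes called were 16 in DM-CLL against WT (10). Without the filter on low values, genes called were 17 in Sf3b1 MT against WT, 4 in DM against Sf3b1 MT (12), 168 in DM against Atm MT and 5 for the interaction (0), and pathway genes in DM against Atm MT were 0 (2). With a pseudocount of 0.1, Sf3b1 MT against WT gave 3. With only Atm MT libraries 5 and 6, genes called were 40 in Atm MT against WT, 27 in DM against Atm MT and 1 for the interaction, and pathway genes in DM against Atm MT were 0.

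Leaving out 1 library gave 0 to 23 genes called in Sf3b1 MT against WT, 19 (without WT 1) to 198 in Atm MT against WT, 10 (without WT 1) to 318 in DM against WT, 0 to 2 in DM against Sf3b1 MT, 7 (without DM 1) to 864 in DM against Atm MT, 0 to 1 for the interaction, 1504 (without DM-CLL 4) to 3206 in DM-CLL against DM and 696 (without DM-CLL 4) to 1237 in DM-CLL against WT. Pathway genes called were 0 to 2 in Atm MT against WT and in DM against WT, 0 to 5 in DM against Atm MT, 9 to 20 in DM-CLL against DM and 5 to 11 in DM-CLL against WT, the lowest 2 without DM-CLL 4. The lone DM-CLL library left in such fits is assumed to vary like the other groups. Read depth is unknown, and the causes of these changes were not tested.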
